A study of Mus musculus with 12 samples.

Results

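The genes described here are 35 glycolytic genes and targets of hypoxia-inducible factor (HIF), given as a fixed list of symbols and found by Ensembl ID among the 39179 gene IDs of the count files. They comprise 3 sugar and lactate transporters, 9 enzymes of the energy-consuming first steps, 6 enzymes of the later steps, 3 regulators of flux, 3 genes of oxygen sensing and 11 other HIF targets. All 35 members passed the filter on low counts, which left 12189 genes tested. Glycolysis splits glucose into pyruvate in the cytosol, and lactate dehydrogenase and a lactate carrier dispose of the end product. HIF is the transcription factor that cells stabilise when oxygen, or its sensing enzymes, are limiting, and it raises many of the same genes through the DNA core ACGTG or GCGTG. Activated helper T cells run glycolysis at a high rate, and Th17 cells are known for a stronger dependence on HIF-1 than other helper subsets.

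Messenger RNA was sequenced from CD4 T cells of mice with the transgenic OT-II receptor, which recognises an ovalbumin peptide, after 8 days of culture from naive lymph node and spleen cells. The 4 groups, with 3 libraries each, were Th17 KO, Th17 WT, Th1 KO and Th1 WT. KO cells came from OT-II x NKG2D-/- mice, which lack the activating receptor NKG2D, and were sorted as Thy1.1+. WT cells came from C57BL/6 x OT-II mice and were sorted as Thy1.2+ and NKG2D+. All groups received the ovalbumin peptide, anti-CD28 and antigen-presenting cells, and were polarised at day 0 and day 5. Th17 cultures had IL-1b, IL-6, IL-23, anti-IFNg and anti-IL4, with IL-12 added after the later stimulation, and Th1 cultures had IL-2, IL-12 and anti-IL-4. The KO and WT cells therefore differ in the Thy1 congenic marker and in the sort for NKG2D as well as in genotype, and these cannot be told apart. The labels used here give no oxygen level, no medium change, no animal age and no statement that the 3 libraries of a group were separate cultures or animals, so p-values measure the spread between libraries, which may be technical.

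The libraries held 1647232 to 12688637 counts. One gene ID took 50.97%, 18.3% and 48.1% of the counts of 3 shallow libraries, Th17 KO 2, Th17 WT 2 and Th17 WT 3, and at most 0.00831% elsewhere. CPM (counts per 1000000) used TMM-scaled library sizes over the tested genes, and member calls that change without these 3 libraries are given beside the gene. That fit leaves Th17 WT 1 alone in Th17 WT, and Th17 KO 1 and Th17 KO 3 in Th17 KO. Calls gained or lost for Th17 WT in it therefore rest on Th17 WT 1 and cannot separate depth from that library's own levels. Klrk1, the gene of NKG2D, had 3.35, 2.101 and 1.596 CPM in Th17 KO and 130.3, 141 and 133 CPM in Th17 WT, against 5.58, 5.63 and 3.31 CPM in Th1 KO and 161, 158 and 128 CPM in Th1 WT, so all KO libraries lay far below all WT libraries. The 5 Th17 markers summed to 122 to 130 CPM in Th17 KO and 61.3 to 74.5 CPM in Th17 WT, and to no more than 3.15 CPM in Th1 libraries. Of the 4 Th1 markers, Ifng was higher in Th1 cells but Cxcr3 and Il12rb2 were higher in Th17 cells in both genotypes, which goes against that list's name. Markers of CD8, B, dendritic, macrophage, NK and red cells were 25 genes in all. They summed to 12.6 to 16.5 CPM in Th17 KO and 9.34 to 15.03 CPM in Th17 WT, against 5.21 to 7.59 CPM in Th1 KO and 6.38 to 7.04 CPM in Th1 WT. Ncr1 and Clec9a were at 0 counts throughout, which allows up to 0.236 to 1.82 per 1000000 counts of a library's total. That total includes the gene ID that dominated the 3 shallow libraries. On the TMM-scaled CPM of the sums the limit lies higher in those 3 libraries. The part of the 25 markers in the differences below was not tested. Mitochondrial transcripts made up 16.9 to 20.8% of counts in Th17 libraries and 14.2 to 15.1% in Th1 libraries. Counts in these shares leave out the gene ID that dominated the 3 shallow libraries. In bulk RNA, fewer cells of a type and less RNA per cell cannot be told apart.

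Because HIF acts on the cores ACGTG and GCGTG, the 250 bases upstream of each start in the RefSeq promoter table (GRCm38.p6) were searched for both cores on both strands. Of the 35 members, 32 had an entry, with Ero1l listed as Ero1a, and Slc2a3, Ndrg1 and Bnip3l were not matched. At least one core was present for 30 of 32 members (93.8%), beside 41.5% of all 27025 genes in the table. ACGTG was present for 62.5% of the members and 18.5% of all genes, and GCGTG for 68.8% and 30.9%. The longer CACGTG, which contains ACGTG and is bound by the MYC and MXI1 family, was present for 12.5% of the members and 6.86% of all genes. Counted by window, a core was present in 78.0% of the 50 member windows and 38.6% of all 32851 windows. ACGTG was present in 48.0% and 16.6% of windows, GCGTG in 52.0% and 28.2%, and CACGTG in 8.0% and 6.02%. The genes of the table were not matched to the members for base composition or number of starts. The list itself was made of glycolytic genes and HIF targets, so these shares are no separate support. A match of letters is a description of the window, not a site shown to be used. The sequences below show the range from several cores to none. P4ha2 and Ankrd37 are members with higher levels in Th17 cultures, and Ldha is a member that did not pass the test between cultures. Hk2 was called between genotypes in Th17 cells, a call lost in several alternative fits, and Mxi1 was called in Th1 cells. Capitals mark ACGTG or GCGTG on either strand, read on the gene's own strand.
P4ha2, chr11:54100674-54100923, plus strand: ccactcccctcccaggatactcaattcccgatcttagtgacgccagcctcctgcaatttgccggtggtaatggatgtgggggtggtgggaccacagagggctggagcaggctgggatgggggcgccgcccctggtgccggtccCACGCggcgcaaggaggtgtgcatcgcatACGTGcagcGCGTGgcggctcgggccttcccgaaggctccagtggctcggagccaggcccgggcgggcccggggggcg
Ankrd37, chr8:45999851-46000100, minus strand: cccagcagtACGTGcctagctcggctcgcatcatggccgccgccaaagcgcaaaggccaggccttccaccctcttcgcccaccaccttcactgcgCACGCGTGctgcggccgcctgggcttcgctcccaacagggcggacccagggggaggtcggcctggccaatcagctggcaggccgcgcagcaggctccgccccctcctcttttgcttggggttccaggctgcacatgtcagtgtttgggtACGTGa
Ldha, chr7:46845554-46845803, plus strand: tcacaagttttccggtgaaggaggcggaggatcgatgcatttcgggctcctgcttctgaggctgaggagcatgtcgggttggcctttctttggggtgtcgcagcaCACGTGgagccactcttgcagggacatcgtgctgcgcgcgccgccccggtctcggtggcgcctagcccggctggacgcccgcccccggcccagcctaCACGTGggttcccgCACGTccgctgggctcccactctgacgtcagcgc
Hk2, chr6:82774455-82774704, minus strand: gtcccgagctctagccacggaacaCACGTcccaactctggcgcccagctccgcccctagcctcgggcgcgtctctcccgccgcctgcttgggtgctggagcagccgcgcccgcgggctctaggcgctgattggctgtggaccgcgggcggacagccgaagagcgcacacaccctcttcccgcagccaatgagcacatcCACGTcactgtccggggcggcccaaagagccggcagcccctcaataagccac
Mxi1 first start, chr19:53310256-53310505, plus strand: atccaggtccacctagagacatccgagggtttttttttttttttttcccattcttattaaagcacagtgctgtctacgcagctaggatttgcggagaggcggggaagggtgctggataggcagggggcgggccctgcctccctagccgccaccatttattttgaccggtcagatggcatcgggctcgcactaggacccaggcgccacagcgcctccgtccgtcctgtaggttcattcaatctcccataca
Mxi1 second start, chr19:53329163-53329412, plus strand: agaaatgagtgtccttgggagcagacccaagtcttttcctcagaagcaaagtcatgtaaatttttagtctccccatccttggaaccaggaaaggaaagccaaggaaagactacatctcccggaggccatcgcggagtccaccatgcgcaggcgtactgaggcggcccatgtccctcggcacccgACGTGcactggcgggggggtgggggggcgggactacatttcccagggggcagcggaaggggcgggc
P4ha2 held 1 ACGTG and 2 GCGTG, Ankrd37 held 2 of each, and Hk2 held 2 ACGTG. The Ldha window held 5 ACGTG matches over both strands, of which 4 lie within 2 copies of CACGTG, since each copy reads as ACGTG on both strands. Mxi1 has 3 listed starts, of which the first held no core and the other 2 held 1 ACGTG each.

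Th17 cultures carried more of most of these transcripts than Th1 cultures, in both genotypes. In KO cells 24 of the 35 members were higher in Th17 and 2 were lower, beside 53.6% of all genes tested called in either direction, 26.9% higher and 26.7% lower (edgeR quasi-likelihood test, Benjamini-Hochberg adjusted p under 0.05). In WT cells 23 were higher and 2 lower, beside 47.1% of all genes called, 23.5% higher and 23.6% lower. The median log2 fold change of the members was 0.43 in KO cells and 0.39 in WT cells, against 0.00 and -0.01 over all genes tested. In each genotype the 3 Th17 and 3 Th1 CPM values did not overlap for 23 members, beside 55.7% of all genes in KO cells and 52.1% in WT cells. The members called higher in both genotypes numbered 21, and Aldoa, Ddit4, Egln3, Eno1, Ldha and P4ha1 were called in neither. The share of all genes called higher in both genotypes was not counted. Leaving out the gene ID that dominated the 3 shallow libraries, the glycolytic enzymes together made up 1.39 to 1.56% of counts in Th17 KO. Their share was 1.37 to 1.63% in Th17 WT, against 1.17 to 1.32% in Th1 KO and 1.18 to 1.32% in Th1 WT.

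**Figure D1:**
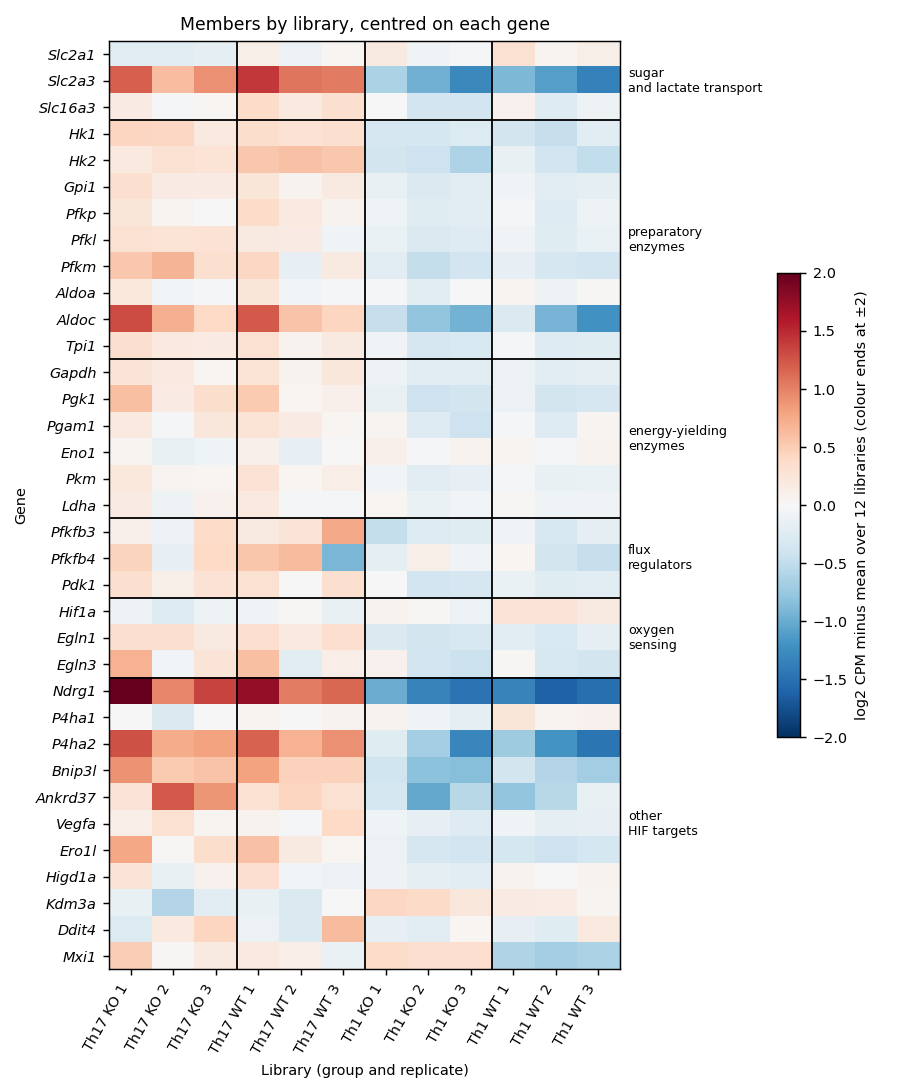
Level of each of the 35 members in each of the 12 libraries, as log2 CPM minus the gene's mean over all libraries, with members grouped by role. The rows of Ndrg1, Slc2a3, P4ha2 and Aldoc split the 6 Th17 from the 6 Th1 libraries most widely, and Mxi1 is low in the 3 Th1 WT libraries.

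**Figure D2:**
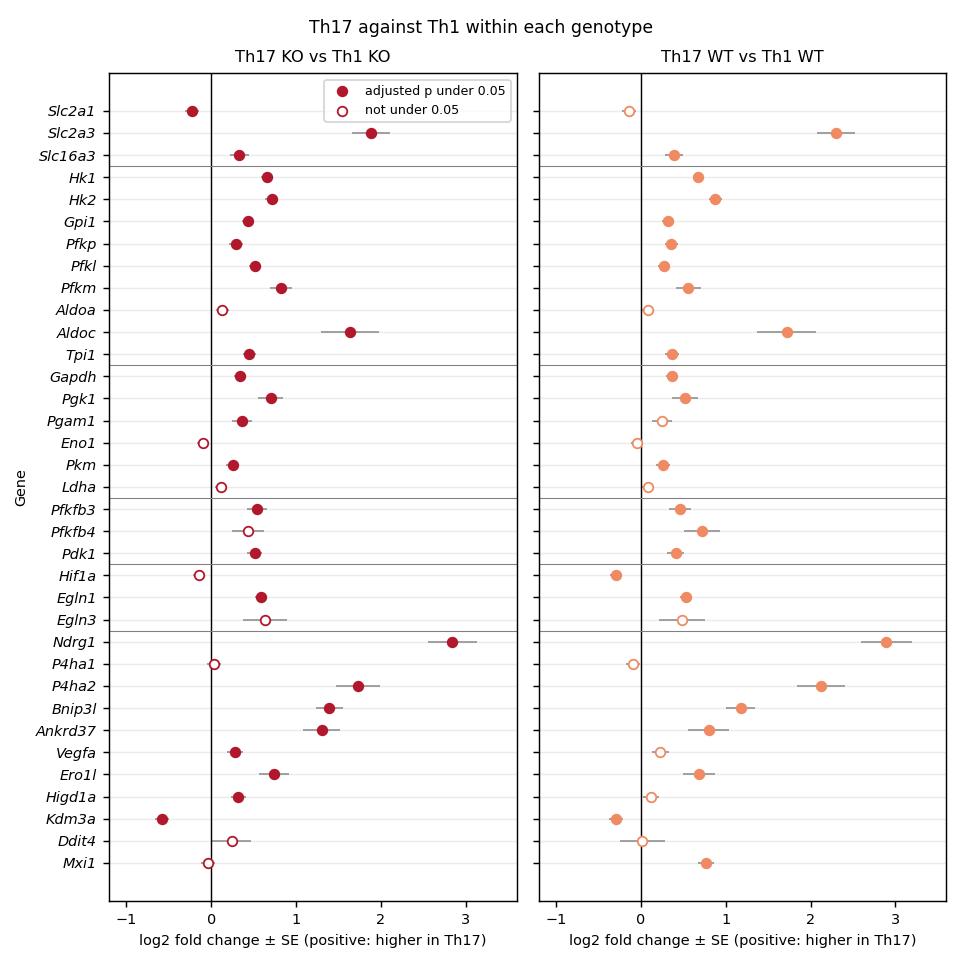
Log2 fold change of Th17 against Th1 with its standard error for each member, in KO cells on the left and WT cells on the right, with filled points for adjusted p under 0.05. Most points lie right of 0 in both panels, and Kdm3a is the member left of 0 and filled in both.

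Among the transporters, Slc2a3 (GLUT3, a glucose carrier with high affinity, chr6:122727809-122801640, GRCm38) had 689, 463 and 566 CPM in Th17 KO and 802, 632 and 624 CPM in Th17 WT, against 196, 155 and 123 CPM in Th1 KO and 162, 140.1 and 119 CPM in Th1 WT. Every Th17 library lay above every Th1 library. The log2 fold change of Th17 over Th1 was 1.88 ± 0.22 in KO cells (adjusted p = 9.38e-05) and 2.30 ± 0.22 in WT cells (adjusted p = 3.45e-05), or 3.69-fold and 4.93-fold. Slc2a1 (GLUT1, the other main glucose carrier of T cells) went the other way: it had 151, 152 and 156 CPM in Th17 KO and 191, 162 and 179.6 CPM in Th17 WT, against 200.1, 167 and 172 CPM in Th1 KO and 218, 182 and 191 CPM in Th1 WT. The KO libraries did not overlap between cultures and the call was lower in Th17 KO, with -0.23 ± 0.08 (adjusted p = 0.0174), but it was lost without Th1 KO 1 (0.131) or Th17 KO 1 (0.0676). In WT cells the value was -0.14 ± 0.08 (adjusted p = 0.162). Slc16a3 (MCT4, which exports lactate) had 256, 225 and 234 CPM in Th17 KO and 296, 263 and 283 CPM in Th17 WT, against 226, 174 and 175 CPM in Th1 KO and 241, 192 and 212 CPM in Th1 WT. The WT libraries did not overlap between cultures and the KO libraries just did. Slc16a3 was higher in Th17 by 0.33 ± 0.11 in KO cells (adjusted p = 0.0176) and 0.39 ± 0.11 in WT cells (adjusted p = 0.00815). Neither Slc16a3 call held without the 3 shallow libraries, a fit that leaves Th17 WT 1 alone in Th17 WT. The KO call was also lost without Th1 KO 2 (0.0598), Th1 KO 3 (0.0652) or Th17 KO 1 (0.0977), and the WT call without Th17 WT 1 (0.0888).

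The 2 glucose carriers can be set against each other per kilobase of exon (the union of all annotated exons), since counts scale with length. Slc2a3 made up 64.01 ± 4.62% in Th17 KO, 65.02 ± 2.17% in Th17 WT, 29.6 ± 3.42% in Th1 KO and 25.6 ± 2.15% in Th1 WT of the summed Slc2a1 and Slc2a3 level (SD, n = 3 each). Slc2a3 was thus the larger part in all 6 Th17 libraries and the smaller part in all 6 Th1 libraries, also when the longest transcript was used for length. Per kilobase of exon, Slc2a3 stood at 79.1 ± 15.6 CPM in Th17 KO, 94.7 ± 13.9 in Th17 WT, 21.8 ± 5.01 in Th1 KO and 19.4 ± 3.02 in Th1 WT. Slc2a1 on the same scale stood at 43.7 ± 0.693, 50.7 ± 4.15, 51.3 ± 5.08 and 56.1 ± 5.29 CPM in the same order of groups.

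Of the 9 enzymes of the energy-consuming steps, 8 were called higher in Th17 in both genotypes, and Aldoa was not called in either. Of all genes tested, 26.9% were called higher in Th17 in KO cells and 23.5% in WT cells. Hexokinases trap glucose in the cell by phosphorylating it. Hk1 had 281, 277 and 237 CPM in Th17 KO and 266, 255 and 259.6 CPM in Th17 WT, against 165, 162 and 173 CPM in Th1 KO and 162, 152 and 177 CPM in Th1 WT. Its Th17 and Th1 ranges did not overlap, and the log2 fold change was 0.66 ± 0.07 in KO cells (adjusted p = 1.29e-08) and 0.68 ± 0.07 in WT cells (adjusted p = 1.68e-08). Hk2, the inducible form, rose by 0.71 ± 0.08 in KO cells (adjusted p = 4.97e-08) and 0.88 ± 0.08 in WT cells (adjusted p = 2.29e-09), and its values follow with the genotype comparison. Gpi1, which turns glucose phosphate into fructose phosphate, had 641, 574 and 571 CPM in Th17 KO and 605, 536 and 577 CPM in Th17 WT, against 463, 419.6 and 444 CPM in Th1 KO and 486, 439 and 453 CPM in Th1 WT. Its cultures did not overlap, and it was higher in Th17 by 0.43 ± 0.07 in KO cells and 0.32 ± 0.07 in WT cells (adjusted p = 4.13e-06 and 2.63e-04). Phosphofructokinase commits sugar to glycolysis. Pfkp had 340.0, 299 and 289 CPM in Th17 KO and 370.2, 329 and 302 CPM in Th17 WT, against 271, 243 and 248 CPM in Th1 KO and 279.8, 240.4 and 268 CPM in Th1 WT. Pfkl had 221, 215 and 219 CPM in Th17 KO and 203, 201 and 170.3 CPM in Th17 WT, against 163, 147 and 149 CPM in Th1 KO and 170.4, 151 and 163 CPM in Th1 WT. Pfkm, the muscle form, had 20.1, 22.1 and 17.2 CPM in Th17 KO and 18.5, 12.3 and 15.6 CPM in Th17 WT, against 11.9, 9.87 and 10.6 CPM in Th1 KO and 12.3, 10.9 and 10.6 CPM in Th1 WT. The cultures did not overlap for Pfkp in either genotype and for Pfkl and Pfkm in KO cells, while Pfkl and Pfkm overlapped in WT cells by 1 Th17 WT library each. All 3 genes were called higher in Th17: Pfkp at 0.29 ± 0.08 and 0.36 ± 0.08, Pfkl at 0.52 ± 0.07 and 0.27 ± 0.07, and Pfkm at 0.82 ± 0.13 and 0.56 ± 0.15, in KO and WT cells in that order. The Pfkm call in WT cells was lost without Th17 WT 1 (adjusted p = 0.485). Pfkp overlaps Pitrm1 and Pfkm overlaps Senp1 on the opposite strand, and the library kit named in the labels does not mark strand, so reads in the overlaps are of uncertain origin.

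The aldolases split fructose bisphosphate. Aldoc, the minor form, had 97.02, 64.1 and 51.7 CPM in Th17 KO and 92.2, 58.1 and 52.95 CPM in Th17 WT, against 28.4, 22.7 and 20.4 CPM in Th1 KO and 32.00, 20.5 and 16.9 CPM in Th1 WT. The 6 Th17 values all exceeded the 6 Th1 values, and the log2 fold change was 1.63 ± 0.34 in KO cells (adjusted p = 0.003502) and 1.72 ± 0.35 in WT cells (adjusted p = 0.00383). The WT call was lost without Th17 WT 1 (adjusted p = 0.0916), though the log2 fold change was still 1.28. Aldoa, the main form, had 1634, 1367 and 1391 CPM in Th17 KO and 1682, 1365 and 1397 CPM in Th17 WT, against 1384, 1231 and 1405 CPM in Th1 KO and 1467, 1326 and 1435 CPM in Th1 WT. Its groups overlapped and the log2 fold change was 0.13 ± 0.08 in KO cells (adjusted p = 0.192) and 0.08 ± 0.08 in WT cells (adjusted p = 0.487). Without the 3 shallow libraries Aldoa was called in WT cells, where Th17 WT 1, its highest Th17 WT library, then stood alone. Tpi1, which interconverts the triose phosphates, had 971, 896 and 873 CPM in Th17 KO and 968, 823 and 885 CPM in Th17 WT, against 745, 621 and 634 CPM in Th1 KO and 760.4, 655 and 658 CPM in Th1 WT. Its cultures did not overlap, and it was higher in Th17 by 0.45 ± 0.08 in KO cells (adjusted p = 3.39e-05) and 0.37 ± 0.08 in WT cells (adjusted p = 4.35e-04).

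Of the 6 enzymes of the later, energy-yielding steps, 4 were called higher in Th17 KO and 3 in Th17 WT, beside 26.9% and 23.5% of all genes tested. Gapdh, which oxidises glyceraldehyde phosphate, had 1960.4, 1878 and 1700.2 CPM in Th17 KO and 1998, 1720.1 and 1925 CPM in Th17 WT, against 1530.1, 1418 and 1420.4 CPM in Th1 KO and 1514, 1415 and 1446 CPM in Th1 WT. The Th17 libraries were all higher, with a log2 fold change of 0.34 ± 0.07 in KO cells (adjusted p = 1.80e-04) and 0.37 ± 0.07 in WT cells (adjusted p = 9.92e-05). Gapdh is often taken as a reference gene of constant level, and here it was 1.27-fold and 1.29-fold higher in Th17. Pgk1, which makes ATP from bisphosphoglycerate, had 1566, 1167 and 1316 CPM in Th17 KO and 1488, 1064 and 1111 CPM in Th17 WT, against 930.2, 776 and 802 CPM in Th1 KO and 952, 805 and 818 CPM in Th1 WT. Its Th17 and Th1 ranges did not overlap, and the log2 fold change was 0.70 ± 0.15 in KO cells (adjusted p = 0.00337) and 0.52 ± 0.15 in WT cells (adjusted p = 0.0195). The Pgk1 call in WT cells was lost without the filter on low counts (0.07899), without Th17 WT 1 (0.0596), without Th1 WT 2 (0.0665) or without Th1 WT 3 (0.0677), all adjusted p. Pkm, pyruvate kinase, had 3174, 2875 and 2823 CPM in Th17 KO and 3359, 2828 and 3026 CPM in Th17 WT, against 2653, 2347 and 2451 CPM in Th1 KO and 2712, 2478 and 2509 CPM in Th1 WT. Its cultures did not overlap, and it was higher in Th17 by 0.25 ± 0.08 in KO cells (adjusted p = 0.00734) and 0.26 ± 0.08 in WT cells (adjusted p = 0.00692, and 0.0589 without Th17 WT 1). Pgam1, a mutase, had 203, 173 and 207 CPM in Th17 KO and 215, 199 and 182 CPM in Th17 WT, against 184, 148 and 133 CPM in Th1 KO and 175, 149 and 184 CPM in Th1 WT. The cultures overlapped in both genotypes. Pgam1 was called in KO cells at 0.36 ± 0.12 (adjusted p = 0.02095) and had 0.25 ± 0.12 in WT cells (adjusted p = 0.101). The Pgam1 call in KO cells failed without the 3 shallow libraries (0.0633), without Th17 KO 1 (0.0878) or 3 (0.0948), and without Th1 KO 2 (0.0643) or 3 (0.0556), all adjusted p. In WT cells it became a call without Th1 KO 1 (0.0195) or Th1 KO 3 (0.0427). Pgam1 also became a call there with limma-voom, with no filter on low counts, and when only the groups compared were fitted.

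Ldha and Eno1 were not called in either genotype. Ldha, which turns pyruvate into lactate and holds 5 core matches in the window printed above, had 1536, 1280.4 and 1453 CPM in Th17 KO and 1564, 1324 and 1343 CPM in Th17 WT, against 1412, 1248 and 1319 CPM in Th1 KO and 1384, 1285 and 1303 CPM in Th1 WT. The groups overlapped, and the log2 fold change was 0.11 ± 0.07 in KO cells (adjusted p = 0.232) and 0.09 ± 0.07 in WT cells (adjusted p = 0.314). Without the 3 shallow libraries the log2 fold change of Ldha was 0.16 in KO cells and 0.24 in WT cells, and both were called. In that fit Th17 WT 1, the highest of the 3 Th17 WT libraries for Ldha, stood alone for Th17 WT. Eno1, enolase, had 1198, 1039.9 and 1080.1 CPM in Th17 KO and 1241, 1033 and 1156 CPM in Th17 WT, against 1236, 1128 and 1207 CPM in Th1 KO and 1195, 1123 and 1211 CPM in Th1 WT. Its log2 fold change was -0.10 ± 0.07 in KO cells (adjusted p = 0.227) and -0.04 ± 0.07 in WT cells (adjusted p = 0.681). Gapdh, Aldoa, Pgk1, Pgam1, Eno1, Ldha and Tpi1 have processed pseudogenes, so reads shared with those copies make their levels uncertain. The reads on Gapdh also share an interval with Iffo1 on the opposite strand.

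By level per kilobase of exon, Pgk1, Pkm, Aldoa, Gapdh and Ldha stood highest in both Th17 groups when the exon union set the length. In Th17 KO they had 602 ± 89.96, 591 ± 37.9, 503 ± 50.8, 447 ± 32.2 and 430.0 ± 39.4 CPM per kilobase in that order (SD, n = 3), with the neighbours Pgk1 and Pkm, and Gapdh and Ldha, within their SDs of each other. In Th1 WT the same genes had 383 ± 36.3, 513 ± 25.5, 484 ± 25.4, 353 ± 12.3 and 400.1 ± 15.9 CPM per kilobase, so by this length Pgk1 stood beside Pkm in Th17 KO and below Pkm, Aldoa and Ldha in Th1 WT. This order depends on the length used. By longest transcript Pkm, Aldoa and Ldha stood above Pgk1 in every group, with 1216, 945 and 784 CPM per kilobase against 739.7 for Pgk1 in Th17 KO, and 1055, 909.7 and 729.6 against 470.4 in Th1 WT. By that length Tpi1, at 568 CPM per kilobase, also stood above Gapdh, at 561, in Th17 KO. Hif1a was itself among the higher members, at 297 ± 20.6 CPM per kilobase in Th17 KO and 388 ± 11.5 in Th1 WT. At the other end, Pfkfb4, Pfkfb3 and P4ha2 were the 3 lowest members in every group by exon union, and Pfkfb4 was the lowest by either length. Pfkfb4 had 1.43 ± 0.307 CPM per kilobase in Th17 KO and 1.01 ± 0.196 in Th1 WT.

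The isoform families differed in whether their makeup moved with culture. Aldoc made up 4.08 ± 0.914% in Th17 KO, 3.87 ± 0.717% in Th17 WT, 1.57 ± 0.264% in Th1 KO and 1.44 ± 0.439% in Th1 WT of the aldolase level per kilobase (SD, n = 3 each). By longest transcript the Aldoc shares were 2.59 ± 0.588% in Th17 KO, 2.45 ± 0.461% in Th17 WT, 0.983 ± 0.166% in Th1 KO and 0.901 ± 0.276% in Th1 WT. P4ha2 made up 14.9 ± 2.102% in Th17 KO, 13.7 ± 1.797% in Th17 WT, 5.17 ± 1.296% in Th1 KO and 3.49 ± 0.7003% in Th1 WT of the pair P4ha1 and P4ha2, with higher shares when the longest transcript set the length (26.00 ± 3.18% in Th17 KO, 24.1 ± 2.77% in Th17 WT, 9.84 ± 2.35% in Th1 KO and 6.76 ± 1.31% in Th1 WT). Pfkl was the largest part of the phosphofructokinase level throughout, at 53.1 ± 1.93% in Th17 KO, 49.3 ± 2.09% in Th17 WT, 50.8 ± 0.197% in Th1 KO and 51.3 ± 0.312% in Th1 WT, and Pfkm made up 9.59 ± 1.09% in Th17 KO, 7.95 ± 1.44% in Th17 WT, 7.15 ± 0.262% in Th1 KO and 7.17 ± 0.424% in Th1 WT. Egln3 held 66.4 ± 5.95% in Th17 KO, 64.1 ± 5.499% in Th17 WT, 67.3 ± 4.02% in Th1 KO and 66.2 ± 3.38% in Th1 WT of the pair Egln1 and Egln3, which is a small range beside its spread. Hk2 was the larger hexokinase by exon union, at 57.6 ± 2.69% in Th17 KO, 62.9 ± 0.887% in Th17 WT, 56.7 ± 3.05% in Th1 KO and 59.3 ± 4.11% in Th1 WT, but the smaller by longest transcript, at 42.5 ± 2.69% in Th17 KO, 47.9 ± 0.9498% in Th17 WT, 41.6 ± 2.98% in Th1 KO and 44.2 ± 4.16% in Th1 WT, so which hexokinase leads depends on the length used.

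**Figure D3:**
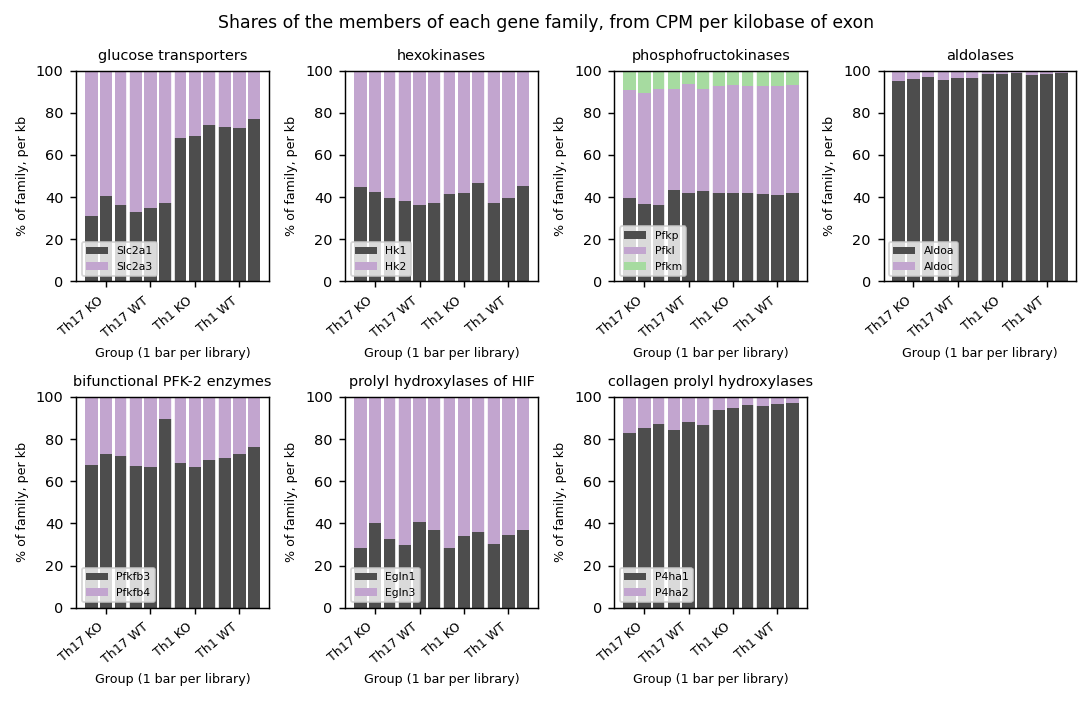
Share of each isoform in its family, in percent of the summed level per kilobase of exon, with 1 bar per library in each group. Slc2a3 takes most of the glucose transporter level in Th17 libraries (64.0% in Th17 KO and 65.0% in Th17 WT) and the smaller part in Th1 libraries (29.6% in Th1 KO and 25.6% in Th1 WT).

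The flux regulators numbered 3. Pfkfb3 and Pfkfb4 make and remove fructose 2,6-bisphosphate, which activates phosphofructokinase, and Pdk1 is a kinase that inhibits pyruvate dehydrogenase. Pfkfb3 had 25.7, 22.1 and 30.8 CPM in Th17 KO and 26.9, 28.5 and 40.5 CPM in Th17 WT, against 17.2, 19.8 and 20.1 CPM in Th1 KO and 22.9, 19.2 and 21.02 CPM in Th1 WT. Within each genotype the Th17 values all lay above the Th1 values, at 0.54 ± 0.12 in KO cells (adjusted p = 3.23e-04) and 0.46 ± 0.13 in WT cells (adjusted p = 0.00391). Pfkfb4 had 7.94, 5.25 and 7.73 CPM in Th17 KO and 8.56, 9.097 and 3.11 CPM in Th17 WT, against 5.103, 6.32 and 5.57 CPM in Th1 KO and 6.02, 4.54 and 4.23 CPM in Th1 WT, with overlapping groups. It was called in WT cells at 0.72 ± 0.21 (adjusted p = 0.00729, and 0.219 without Th17 WT 1) and had 0.43 ± 0.19 in KO cells (adjusted p = 0.0657, and 0.0492 without Th17 WT 3 and 0.0417 without the 3 shallow libraries). The KO comparison of Pfkfb4 also passed when only the groups compared were fitted. Pdk1 had 134, 116 and 130.3 CPM in Th17 KO and 132, 106 and 133 CPM in Th17 WT, against 106, 81.9 and 85.1 CPM in Th1 KO and 97.9, 90.2 and 91.4 CPM in Th1 WT. Within each genotype its cultures did not overlap, and it was higher in Th17 by 0.51 ± 0.09 in KO cells (adjusted p = 1.32e-04) and 0.41 ± 0.10 in WT cells (adjusted p = 0.00174, and 0.0565 without Th17 WT 1).

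The genes of oxygen sensing did not move together. Hif1a (chr12:73901375-73947530), the HIF subunit that is mainly controlled through protein stability, had 1821, 1609 and 1819 CPM in Th17 KO and 1863, 1979 and 1759 CPM in Th17 WT, against 2038, 1989 and 1792 CPM in Th1 KO and 2332, 2325 and 2211 CPM in Th1 WT. The WT libraries did not overlap between cultures, with lower levels in Th17, and the log2 fold change was -0.15 ± 0.07 in KO cells (adjusted p = 0.0851) and -0.29 ± 0.07 in WT cells (adjusted p = 0.00128). Without Th1 KO 3 the KO comparison also passed (adjusted p = 0.0263), as it did with limma-voom and with no filter on low counts. Egln1 (PHD2), the hydroxylase that marks HIF for destruction, had 123, 123 and 111 CPM in Th17 KO and 125, 112 and 124 CPM in Th17 WT, against 79.95, 76.02 and 79.1 CPM in Th1 KO and 83.9, 79.8 and 86.6 CPM in Th1 WT. It did not overlap in either genotype, at 0.59 ± 0.07 in KO cells (adjusted p = 4.71e-08) and 0.53 ± 0.07 in WT cells (adjusted p = 6.44e-07). Egln3 (PHD3), itself a HIF target, had 231, 137 and 169.9 CPM in Th17 KO and 216, 121 and 156 CPM in Th17 WT, against 151, 109 and 105 CPM in Th1 KO and 144, 113 and 109.7 CPM in Th1 WT. Its libraries spread widely within groups, and the log2 fold change was 0.63 ± 0.26 in KO cells (adjusted p = 0.0752) and 0.49 ± 0.27 in WT cells (adjusted p = 0.178). In KO cells it became a call with limma-voom (0.00381) and without Th1 KO 1 (0.0479) or Th17 WT 1 (0.0486), all adjusted p.

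Of the other 11 HIF targets, 7 were called higher in Th17 KO and 6 in Th17 WT, beside 26.9% and 23.5% of all genes tested. Kdm3a was lower in Th17 in both genotypes. Ndrg1 (chr15:66929318-66969640), a stress-responsive gene strongly induced by hypoxia, had 320.4, 157 and 203 CPM in Th17 KO and 270.0, 163 and 178 CPM in Th17 WT, against 40.2, 31.8 and 28.7 CPM in Th1 KO and 31.6, 26.2 and 28.1 CPM in Th1 WT. All Th17 libraries lay far above all Th1 libraries. Its log2 fold change, the largest of the members, was 2.84 ± 0.29 in KO cells (adjusted p = 4.56e-05) and 2.89 ± 0.30 in WT cells (adjusted p = 6.03e-05), or 7.15-fold and 7.42-fold. P4ha2 (chr11:54100095-54131665), a collagen prolyl hydroxylase subunit, had 34.7, 24.2 and 25.03 CPM in Th17 KO and 32.5, 23.3 and 27.00 CPM in Th17 WT, against 12.1, 8.96 and 5.81 CPM in Th1 KO and 8.78, 6.27 and 5.203 CPM in Th1 WT. No Th1 library reached a Th17 library, and the log2 fold change was 1.73 ± 0.26 in KO cells (adjusted p = 2.01e-04) and 2.12 ± 0.28 in WT cells (adjusted p = 1.13e-04). Its partner P4ha1 was not called in either genotype, at 0.03 ± 0.08 in KO cells and -0.09 ± 0.08 in WT cells (adjusted p = 0.799 and 0.371). Bnip3l (NIX, a receptor for the removal of mitochondria, chr14:66985239-67008877) had 154, 119 and 123 CPM in Th17 KO and 144, 114 and 113 CPM in Th17 WT, against 62.8, 46.6 and 45.7 CPM in Th1 KO and 64.3, 54.8 and 51.1 CPM in Th1 WT. Again all Th17 libraries were higher, at 1.39 ± 0.16 in KO cells (adjusted p = 4.01e-05) and 1.18 ± 0.17 in WT cells (adjusted p = 2.10e-04).

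Ankrd37, a small HIF target with several cores in the printed window, had 8.098, 15.8 and 12.5 CPM in Th17 KO and 8.39, 9.097 and 8.31 CPM in Th17 WT, against 5.29, 3.34 and 4.603 CPM in Th1 KO and 3.92, 4.62 and 6.11 CPM in Th1 WT. It was low throughout but did not overlap between cultures, at 1.30 ± 0.22 in KO cells (adjusted p = 1.69e-05) and 0.80 ± 0.24 in WT cells (adjusted p = 0.007599). Without Th17 WT 1 the WT call was lost (adjusted p = 0.08100), and Ankrd37 shares an interval with Ufsp2 on the opposite strand. Ero1l, an oxidase of protein folding in the endoplasmic reticulum, had 432, 258 and 323 CPM in Th17 KO and 378, 288 and 259.6 CPM in Th17 WT, against 233, 200.1 and 194 CPM in Th1 KO and 199, 190.4 and 198 CPM in Th1 WT. Its cultures did not overlap, and it was higher in Th17 by 0.74 ± 0.18 in KO cells (adjusted p = 0.00873) and 0.69 ± 0.19 in WT cells (adjusted p = 0.0149, and 0.0959 without Th17 WT 1). Vegfa, the vessel growth factor, had 34.6, 38.9 and 32.6 CPM in Th17 KO and 33.1, 30.8 and 41.5 CPM in Th17 WT, against 29.6, 28.1 and 26.4 CPM in Th1 KO and 30.04, 27.8 and 28.2 CPM in Th1 WT. Within each genotype its cultures did not overlap. Vegfa was called in KO cells at 0.28 ± 0.09 (adjusted p = 0.0102) and had 0.23 ± 0.10 in WT cells (adjusted p = 0.0639). The Vegfa call was lost without Th1 KO 3 (0.0521) or Th17 KO 1 (0.0574), both adjusted p. Higd1a, a mitochondrial protein, had 73.8, 55.7 and 65.8 CPM in Th17 KO and 77.6, 59.3 and 57.1 CPM in Th17 WT, against 57.4, 53.9 and 53.4 CPM in Th1 KO and 64.5, 61.2 and 65.00 CPM in Th1 WT. Its cultures overlapped in both genotypes. Higd1a was called in KO cells at 0.32 ± 0.09 (adjusted p = 0.00389, and 0.0766 without Th17 KO 1) and had 0.12 ± 0.09 in WT cells (adjusted p = 0.299). Without the 3 shallow libraries Higd1a was also called in WT cells, where Th17 WT 1, its highest Th17 WT library, then stood alone.

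Kdm3a, a histone demethylase induced by hypoxia in many cells, had 82.3, 60.9 and 78.03 CPM in Th17 KO and 82.9, 74.8 and 92.4 CPM in Th17 WT, against 122, 119.9 and 107 CPM in Th1 KO and 102, 102 and 95.6 CPM in Th1 WT. The Th17 libraries were all lower, and the log2 fold change was -0.58 ± 0.08 in KO cells (adjusted p = 7.73e-07) and -0.29 ± 0.08 in WT cells (adjusted p = 0.006395). Ddit4 (REDD1, an inhibitor of the kinase mTORC1) had 46.02, 64.1 and 75.4 CPM in Th17 KO and 51.3, 45.5 and 86.2 CPM in Th17 WT, against 49.8, 47.7 and 57.7 CPM in Th1 KO and 49.6, 47.4 and 63.7 CPM in Th1 WT. Its groups overlapped widely, at 0.24 ± 0.23 in KO cells (adjusted p = 0.428) and 0.02 ± 0.26 in WT cells (adjusted p = 0.968). Mxi1 was the 1 member whose difference between cultures itself differed between genotypes by test, and is described with the genotype comparison.

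The count of calls in WT cells leaned on one library. Without Th17 WT 1, which leaves the 2 shallow Th17 WT libraries on that side, 14 members were called higher in Th17 WT instead of 23, while 4197 genes in all were called instead of 5738. Without Th17 KO 1, 20 members were called higher in Th17 KO instead of 24. The libraries numbered 1 also stood high within their own groups. Library 1 held the highest CPM of its group for 25 of 35 members in Th17 KO, 25 in Th17 WT, 30 in Th1 KO and 28 in Th1 WT (71.4%, 71.4%, 85.7% and 80.0%). Over all genes tested, library 1 was the highest of its group for 32.4%, 33.8%, 35.7% and 33.2% in the same order. The numbers only name the libraries, and the labels do not say whether libraries of different groups shared a culture or a day.

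**Figure D4:**
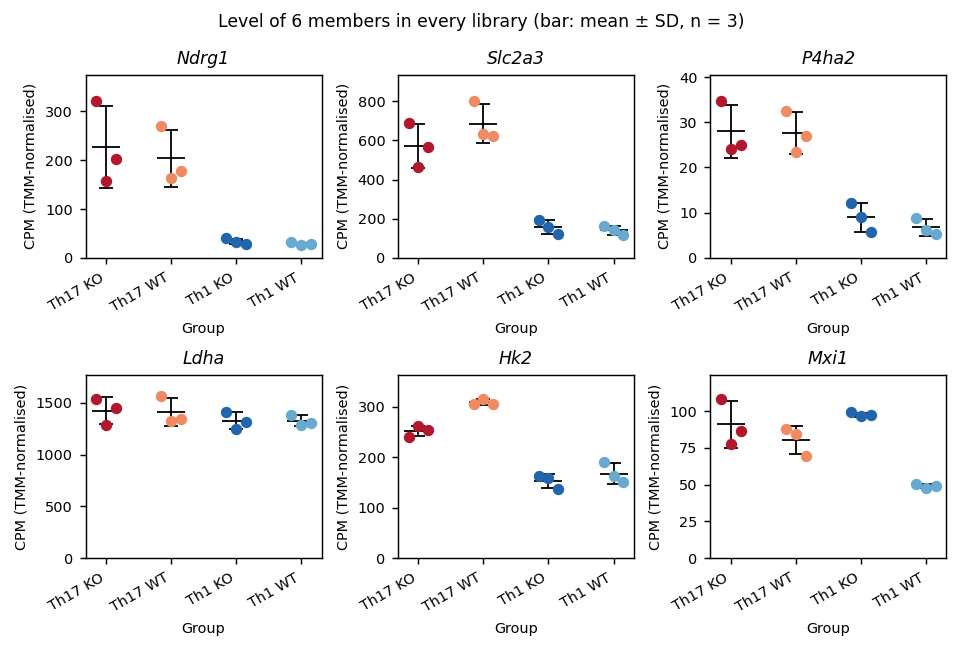
CPM of selected members in each library, with the 3 libraries of each group side by side. Within a group library 1 is usually the highest, as for Ndrg1 with 320.4 CPM in Th17 KO 1 beside 156.5 and 203.3 CPM in the other two.

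Between Th17 KO and Th17 WT, nothing particular to the members is read from the number called. Of 35 members, 0 were called higher and 1 lower in Th17 KO against Th17 WT, beside 5.83% of all genes called, 1.81% higher and 4.02% lower. At an unadjusted p under 0.05, 1 member was higher and 2 were lower, and DESeq2 and limma-voom also called 0 members higher. The median log2 fold change was -0.02, and the values ran between -0.30 and 0.32. CPM ranges of the 2 groups did not overlap for 5 members (Slc2a1, Slc16a3, Hk2, Pfkl and P4ha1), beside 18.5% of all genes. The called member was Hk2 (chr6:82725025-82774454), with 241, 262 and 253 CPM in Th17 KO and 306, 315 and 305 CPM in Th17 WT. All Th17 KO libraries lay below all Th17 WT libraries, with a log2 fold change of -0.30 ± 0.08 (adjusted p = 0.0264). The Hk2 call was lost with limma-voom (0.0619), and without Th17 KO 1 (0.134), Th17 KO 3 (0.0714), Th17 WT 1 (0.07004), Th17 WT 2 (0.105) or Th17 WT 3 (0.0621), all adjusted p. Hk2 also lost its call without the 3 shallow libraries, a fit that leaves Th17 WT 1 alone in Th17 WT. Over all 19 alternative fits its log2 fold change stayed between -0.32 and -0.26. In Th1 cells Hk2 had 163, 158 and 137 CPM in Th1 KO and 190.4, 162 and 149.9 CPM in Th1 WT, with overlapping groups and -0.13 ± 0.08 (adjusted p = 0.427). The difference between these genotype effects did not pass (adjusted p = 0.6805). Slc2a1 and Slc16a3 also had lower values in every Th17 KO library than in every Th17 WT library, at -0.22 ± 0.08 and -0.23 ± 0.11 (adjusted p = 0.142 and 0.315), and did not pass.

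In Th1 cells 1 member was called higher in KO and 1 lower, beside 4.61% of all genes called, 1.69% higher and 2.92% lower. The median log2 fold change was -0.05, and 4 members had CPM ranges that did not overlap, beside 24.5% of all genes. Mxi1 (chr19:53310518-53375810) encodes MAX interactor 1, a repressor that binds the same partner and DNA as MYC and is raised by HIF in several cell types. Mxi1 had 99.1, 96.5 and 97.2 CPM in Th1 KO and 50.4, 47.7 and 49.3 CPM in Th1 WT. The Th1 KO libraries all lay far above the Th1 WT libraries, with a narrow spread in both groups, and the log2 fold change was 0.99 ± 0.08 (1.99-fold, adjusted p = 7.62e-09). All 19 alternative fits kept this call, with adjusted p no higher than 5.93e-07. In Th17 cells Mxi1 had 108, 77.7 and 86.7 CPM in Th17 KO and 87.5, 84.2 and 69.6 CPM in Th17 WT, with overlapping groups and 0.18 ± 0.09 (adjusted p = 0.322).

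The genotype difference of Mxi1 in Th17 cells less that in Th1 cells was -0.81 ± 0.12 on the log2 scale (adjusted p = 6.39e-04), and this test of the difference also held in all 18 alternative fits that can hold it. Mxi1 was the 1 member called in that test, beside 0.591% of all genes called, 0.115% higher and 0.476% lower. Put the other way, Mxi1 was higher in Th17 than in Th1 by 0.77 ± 0.09 in WT cells (adjusted p = 1.51e-07), while the KO value was -0.04 ± 0.08 (adjusted p = 0.685, and 0.0476 without Th17 KO 1). These comparisons share the Th1 WT, Th1 KO and Th17 libraries and are not separate evidence. Mxi1 lies on chromosome 19, and of the 11 tested genes within 1 Mb of it 0 were called in either genotype comparison (edgeR, lowest adjusted p 0.122 in Th17 cells and 0.218 in Th1 cells). Members on chromosome 6, where Klrk1 lies, were Gapdh, Tpi1, Slc2a3, Hk2 and Kdm3a, at 4.44, 4.80, 6.81, 46.8 and 58.0 Mb from it.

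Hif1a was the member called lower in Th1 KO, with 2038, 1989 and 1792 CPM in Th1 KO and 2332, 2325 and 2211 CPM in Th1 WT. The groups did not overlap, and the log2 fold change was -0.24 ± 0.07 (adjusted p = 0.0494). The call was lost without any one of the Th1 libraries, with adjusted p of 0.0669, 0.117 and 0.234 without Th1 KO 1, 2 and 3, and 0.155, 0.172 and 0.0715 without Th1 WT 1, 2 and 3. Without Th17 WT 3 its adjusted p was 0.0683. Kdm3a and Higd1a also had Th1 KO and Th1 WT values that did not overlap, at 0.22 ± 0.07 and -0.21 ± 0.08 (adjusted p = 0.0889 and 0.158), and did not pass. Kdm3a passed without Th17 KO 2 (0.0485) and without the 3 shallow libraries (0.0229), and Slc16a3, at -0.17 ± 0.10, passed without Th1 KO 1 (0.0479), all adjusted p.

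**Figure D5:**
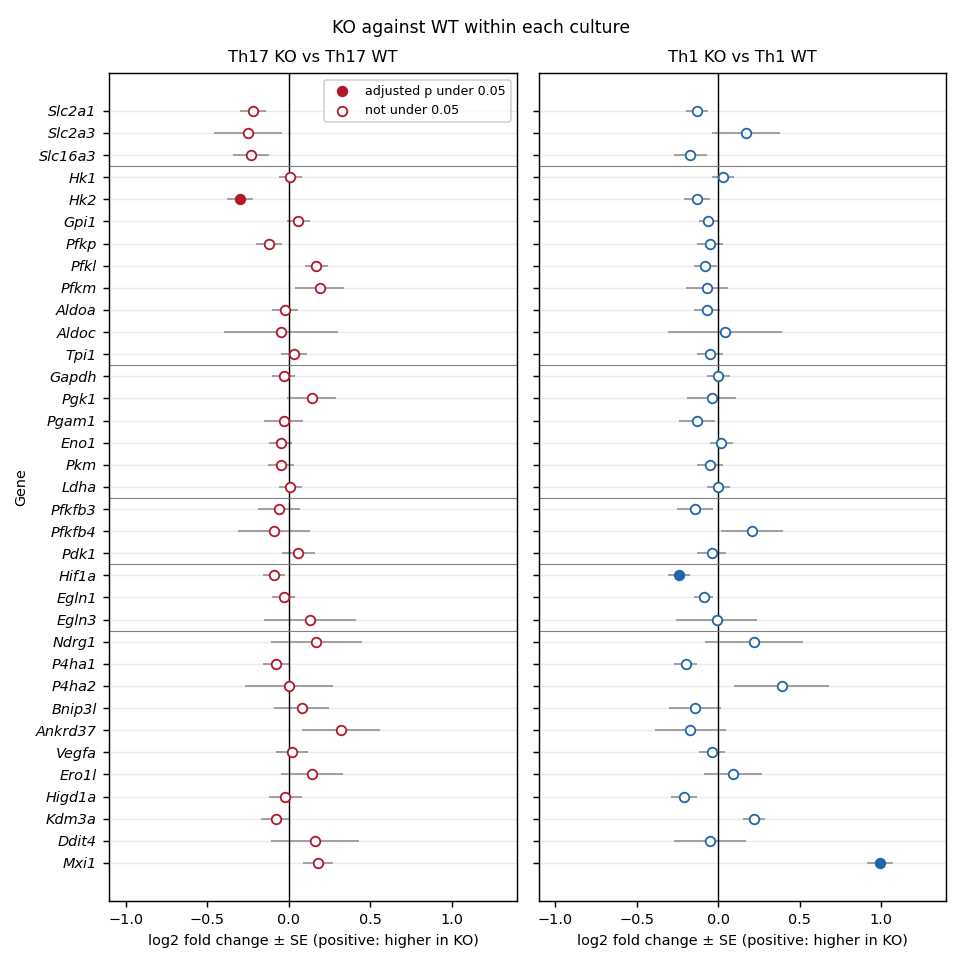
Log2 fold change of KO against WT with its standard error for each member, in Th17 cells on the left and Th1 cells on the right, with filled points for adjusted p under 0.05. Most members lie close to 0, and Mxi1 stands apart at 0.99 in Th1 cells.

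Further genes of these pathways were taken from 3 lists. Of 26 tested genes near glycolysis, 12 were higher and 4 lower in Th17 KO against Th1 KO, and 11 higher and 5 lower in Th17 WT against Th1 WT. These counts stand beside 53.6% of all tested genes called in KO cells and 47.1% in WT cells, the background for all 3 lists, so nothing particular to a list is read from its count. Slc2a6 (GLUT6, a transporter of intracellular membranes) had 15.96, 16.8 and 16.97 CPM in Th17 KO and 18.05, 18.98 and 20.8 CPM in Th17 WT, against 0.662, 0.903 and 0.888 CPM in Th1 KO and 0.726, 0.548 and 0.555 CPM in Th1 WT. The cultures were far apart, at 4.29 ± 0.20 in KO cells and 4.91 ± 0.21 in WT cells (adjusted p = 1.64e-15 and 8.03e-16). Eno2, another enolase, was higher in Th17 by 2.88 ± 0.32 in KO cells and 2.66 ± 0.38 in WT cells (adjusted p = 2.43e-08 and 2.49e-06). Eno2 was low, with 5.92, 3.15 and 5.71 CPM in Th17 KO and 3.90, 3.96 and 1.04 CPM in Th17 WT, against at most 0.888 CPM in Th1. The main form Eno1, by contrast, was not called. Gys1, glycogen synthase, was higher by 1.37 ± 0.16 in KO cells and 1.25 ± 0.17 in WT cells (adjusted p = 6.00e-06 and 3.60e-05). Pdk2, another kinase of pyruvate dehydrogenase, was higher by 1.36 ± 0.49 in WT cells (adjusted p = 0.02298) and had 0.68 ± 0.42 in KO cells (0.175). The WT call was lost without Th17 WT 2 (0.224), Th1 WT 2 (0.0529) or Th1 WT 3 (0.0548), and without the 3 shallow libraries. Pdk2 was low, with 1.10, 3.96 and 2.08 CPM in Th17 WT and 0.798, 0.627 and 0.624 CPM in Th1 WT. Lower in Th17 was Adpgk, a glucokinase that uses ADP, at -0.77 ± 0.09 in KO cells and -0.66 ± 0.10 in WT cells. The lactate carrier Slc16a1 (MCT1) was also lower, at -0.42 ± 0.07 in KO cells and -0.58 ± 0.08 in WT cells. Taldo1, of the pentose phosphate pathway, was lower, at -0.52 ± 0.07 in KO cells and -0.40 ± 0.07 in WT cells. Tigar, which lowers fructose 2,6-bisphosphate, was lower at -0.51 ± 0.14 in KO cells (adjusted p = 0.00327, 0.154 without Th17 KO 1) and -0.49 ± 0.16 in WT cells (adjusted p = 0.0126, 0.539 without Th17 WT 1 and 0.0831 with DESeq2). Between genotypes 0 of the 26 were called in Th17 or Th1 cells by edgeR, beside 5.83% and 4.61% of all tested genes. At an unadjusted p under 0.05 there were 5 and 1. DESeq2 called 0 in both, and limma-voom 0 in Th17 and 1 in Th1 cells.

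Of 33 further hypoxia genes tested, 18 were higher and 5 lower in Th17 KO against Th1 KO, and 15 higher and 2 lower in Th17 WT against Th1 WT, beside the same 53.6% and 47.1% of all tested genes called. Hif3a, a HIF subunit that limits the response, had 10.98, 8.403 and 9.32 CPM in Th17 KO and 8.05, 7.91 and 9.34 CPM in Th17 WT, against 3.02, 3.13 and 4.12 CPM in Th1 KO and 2.47, 2.27 and 2.43 CPM in Th1 WT. It was higher in Th17 by 1.54 ± 0.18 in KO cells and 1.76 ± 0.21 in WT cells (adjusted p = 7.10e-08 and 1.77e-07). Vldlr, a lipoprotein receptor, was higher by 2.38 ± 0.48 in KO cells and 2.14 ± 0.50 in WT cells, and Rragd, a GTPase of mTORC1 signalling, by 1.60 ± 0.40 and 1.54 ± 0.44. Without Th17 WT 1 neither WT call held, with adjusted p of 0.319 for Vldlr and 0.962 for Rragd. The Rragd call in WT cells was also lost with limma-voom (0.196) and DESeq2 (0.0591). Rragd was low, with 5.17, 1.98 and 0 CPM in Th17 WT and 1.81, 1.33 and 0.902 CPM in Th1 WT. Arnt2, a HIF partner subunit, was lower in Th17, at -3.91 ± 0.52 in KO cells and -2.22 ± 0.60 in WT cells. Its Th17 levels were near 0, with 0.389, 0 and 0.840 CPM in Th17 KO and 1.10, 0.791 and 0 CPM in Th17 WT. Th1 KO had 4.82, 10.1 and 11.5 CPM, and Th1 WT 2.97, 4.31 and 6.31 CPM. The WT call of Arnt2 (adjusted p = 0.00738) was lost without Th17 WT 1 (0.120) or without the 3 shallow libraries. Car12, a carbonic anhydrase, was lower, at -0.95 ± 0.15 in KO cells and -0.88 ± 0.18 in WT cells. Epas1 (HIF-2 alpha) was lower, at -2.12 ± 0.60 in KO cells (adjusted p = 0.00854), and had -1.03 ± 0.60 in WT cells (0.184). The KO call was lost without Th17 KO 1 (0.0815) or Th17 KO 3 (0.0620) and with DESeq2 (0.190). Epas1 was low, with 0.545, 4.20 and 0.672 CPM in Th17 KO and 1.80, 3.61 and 4.44 CPM in Th1 KO. In Th1 cells Ccng2, an unconventional cyclin, had 46.7, 47.9 and 52.2 CPM in KO and 59.1, 65.5 and 69.6 CPM in WT libraries. Ccng2 was lower in Th1 KO, at -0.40 ± 0.08 (adjusted p = 0.00144). In Th17 cells 0 were called between genotypes by edgeR, DESeq2 and limma-voom, beside 5.83% of all tested genes called by edgeR. With edgeR 3 had an unadjusted p under 0.05.

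Of 19 tested regulators of these pathways, 4 were higher and 7 lower in Th17 KO against Th1 KO, and 6 higher and 5 lower in Th17 WT against Th1 WT, again beside 53.6% and 47.1% of all tested genes called. Mxd4, a repressor of the same MAX network as Mxi1, had 40.96, 39.9 and 36.5 CPM in Th17 KO and 34.99, 32.4 and 33.2 CPM in Th17 WT, against 4.82, 6.25 and 5.49 CPM in Th1 KO and 5.804, 5.09 and 4.65 CPM in Th1 WT. The cultures did not overlap, at 2.80 ± 0.12 in KO cells and 2.71 ± 0.13 in WT cells (adjusted p = 3.36e-16 and 5.74e-15). Mxd3, another repressor of that network, was lower in Th17, at -1.41 ± 0.10 in KO cells and -1.40 ± 0.11 in WT cells, and Mycn, a MYC relative, at -1.93 ± 0.27 and -1.69 ± 0.30. Rheb, an activator of mTORC1, was lower, at -0.99 ± 0.09 and -0.87 ± 0.10. Higher were Arrdc4, an arrestin that limits glucose uptake, at 1.61 ± 0.29 and 1.31 ± 0.30, in KO and WT cells in that order, and Irf4, a transcription factor of activated T cells, at 1.01 ± 0.21 and 1.17 ± 0.21. The WT call of Arrdc4 was lost without Th17 WT 1 (adjusted p = 0.0669). In Th1 cells Mxd1, a further MAX-network repressor, had 143, 147 and 173 CPM in KO and 244, 255 and 269 CPM in WT libraries. Mxd1 was lower in Th1 KO, at -0.73 ± 0.13 (adjusted p = 0.00946, 0.0562 without the 3 shallow libraries), whereas Mxi1 was higher there. Trp53 was higher in Th1 KO by 0.21 ± 0.06 (adjusted p = 0.0497), a call lost without any one of the Th1 libraries, with adjusted p between 0.0863 and 0.218, and with DESeq2 (0.136) or no filter (0.0866). In Th17 cells 0 regulators were called between genotypes by edgeR or limma-voom and 1 by DESeq2, beside 5.83% of all tested genes called by edgeR. With edgeR 3 regulators had an unadjusted p under 0.05. In the test of the difference between the genotype effects, edgeR, DESeq2 and limma-voom called 0 genes of these 3 lists. In that test edgeR called 0.591% of all tested genes. At an unadjusted p under 0.05 it gave 2 in each list.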

How the data were processed

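Gene counts were deposited as 1 table per library, per the labels, for 12 libraries of poly-A primed, amplified cDNA read as paired 75-base reads. The build was GRCm38 (mm10) and the named tools were featureCounts, TopHat2 and Bowtie2, per the submitters' processing notes. For their versions, the annotation release and the strand setting, the sources used here give nothing. The IDs were named from GENCODE M21 (37693 of 39179 IDs). Genes passing edgeR's filterByExpr (12189) were fitted in edgeR 4.0.16 (R 4.3.3) with TMM factors, 1 coefficient per group over all 12 libraries, robust quasi-likelihood tests and Benjamini-Hochberg adjustment over all tested genes at 0.05. Every adjusted p in the text is from that fit unless another tool or a left-out library is named, and ± after a log2 fold change is a standard error. CPM used the same library sizes, and levels between genes are per kilobase of exon. The scripts were tested on simulated counts with known changes. There, 5.13 to 9.45% of the calls were false, above the 0.05 threshold, with the highest share in Th1 KO against Th1 WT. An exact permutation test of 3 against 3 libraries cannot go below 0.1, so none was run.

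The alternatives were DESeq2 1.42.0, limma-voom 3.58.1 with sample weights, DESeq2-style size factors, no filter, only the groups compared, leaving out 3 shallow libraries, leaving out 1 dominant ID, leaving out each library in turn, and length by longest transcript. The members and lists were chosen with earlier results of these data known. All members are described, with values in every library for those called in a comparison or at the ends of the order of level, and a few more. Of each further list, up to 3 called genes with the largest absolute fold change per direction and comparison are named.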

Additional observations from a re-analysis of the deposited data

Results flagged for a closer look

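Mxi1 was singled out because its genotype difference differed between the cultures by a test of that difference. The log2 fold change of KO against WT in Th17 cells less that in Th1 cells was -0.81 (edgeR interaction term, adjusted p = 6.39e-04). Mxi1 had 0.18 ± 0.09 in Th17 cells and 0.99 ± 0.08 in Th1 cells (SE, n = 3 libraries per group). All 3 Th1 KO libraries lay above all 3 Th1 WT libraries, while the Th17 KO and Th17 WT libraries overlapped.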

How the results depend on the processing

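No member call changed sign under any fit tried, but values that did not pass did, such as Higd1a in Th17 WT against Th1 WT (0.12, with a range of -0.12 to 0.29). Genes called in Th17 KO against Th17 WT numbered 711, and 429 with limma-voom, 356 with only those groups and 319 without the 3 shallow libraries; the member called lower (Hk2) became 0 members with limma-voom and without the shallow libraries. In Th1 KO against Th1 WT, 562 genes became 317 with DESeq2, 1071 with limma-voom and 922 with only those groups. Members called higher there became 2 with limma-voom, with only those groups and without the shallow libraries (Mxi1 and Kdm3a), and members called lower became 2 with only those groups (Hif1a and Higd1a). The interaction calls, 72 genes, became 207 with no filter. Mxi1 held its Th1 call in all 19 alternative fits and its interaction call in all 18 that can hold one.

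Leaving out 1 library at a time gave 411 to 713 genes, 0 members higher and 0 to 1 lower for Th17 KO against Th17 WT. It gave 260 to 679 genes, 1 to 2 higher and 0 to 1 lower for Th1 KO against Th1 WT. Th17 KO against Th1 KO had 5551 to 6683 genes, 20 to 25 higher and 1 to 3 lower. Th17 WT against Th1 WT had 4197 to 5892 genes, 14 to 24 higher and 2 lower. The interaction had 38 to 108 genes and 1 member lower. The cause of these changes was not tested, beyond there being fewer libraries. No paired analysis was possible because the labels give the libraries no replicate numbers, and the numbers used here follow accession order. The 3 shallow Th17 libraries limit what can be seen of low members such as Pfkfb4 and Ankrd37, and the limit for 0 counts covers counting error only.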
